A study of Mus musculus with 34 samples.

Results

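The 35 genes described here carry out or control the oxidation of fatty acids, and they were followed through kidney progenitor assembloids, cultured kidney explants and developing kidneys of the mouse. They were chosen by name, as genes of fatty acid uptake and activation, transfer to carnitine, mitochondrial and peroxisomal β-oxidation, ω-oxidation, and 2 regulators, and each was matched by its gene symbol among the 23331 genes of one expression table. All 35 had a row in that table. The choice was made with earlier results of these data known, so shares of members set beside those of all genes are descriptive. The study measured RNA in bulk by sequencing in 34 samples that make 17 groups of 2. Assembloids, abbreviated mKPA, were grown from expandable mouse kidney progenitor cells carrying Hoxb7-venus in v2 medium and sampled on D3, D7, D13 and D19, with 2 groups named r1 and r2 at D19. Explants were Hoxb7-venus kidneys taken at E12.5 and cultured in v1 medium for D3, D7, D13 and D19, in v2 medium to D19, in v0 medium to D17, or in 10% FBS, fetal bovine serum, to D7. Kidneys without culture were wild type, from E12.5 and E15.5 embryos and from mice at P0, P9 and P45, where P counts days after birth. Hoxb7-venus places a fluorescent protein under a promoter active in the ureteric bud lineage, so cultures and kidneys differed in genotype as well as in culture. The v0, v1 and v2 media are stage-based media whose composition was not analysed here.

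Fatty acids enter a cell through carriers such as Cd36 and the Slc27 family, are activated to acyl-CoA, and cross the inner mitochondrial membrane as carnitine esters in a step gated by Cpt1a. Inside, acyl-CoA dehydrogenases, hydratases, hydroxyacyl-CoA dehydrogenases and thiolases shorten the chain in turn, while peroxisomes take the longest chains and Cyp4a enzymes of the endoplasmic reticulum begin oxidation from the ω end. In the adult kidney the proximal tubule depends on this pathway for most of its energy, and the nuclear receptor Ppara is the classic activator of many of these genes.

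Values are normalized signals as the authors deposited them, on a scale where a column summed to 879095 to 1503681. The lowest value in each column served as its step, and dividing the column total by this step gave 7772347 steps for D19 v2 explant replicate 2 and 15243962 to 28459391 steps for the other 33 libraries. Between the replicates of a group, Pearson's r across genes on the log2 scale was 0.981 to 0.996. Changes are log2 differences of (signal + 0.962) between groups with their standard errors, from limma over all 19264 genes that passed a minimum level, and a gene was called changed when its adjusted p (Benjamini-Hochberg over all genes) was under 0.05 and its log2 change was at least 1 in size. The filter kept 34 of the 35 members. Counts at an unadjusted p under 0.05 use no fold limit. The share of all genes at that threshold was not taken, so those counts have no background here. The shares of all genes higher or lower printed near them belong to called changes. Nothing in the labels said that replicates came from separate animals or cultures, so p-values measure the spread between the 2 libraries of each group, which may be technical. The 35 members together took 0.187% to 0.195% of all signal in D19 mKPA, 0.179% and 0.176% in D19 v2 explants, 0.1101% and 0.1105% in E12.5 kidneys, and 0.637% and 0.602% in P45 kidneys.

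The tissue was checked against its markers before the members were compared. The summed signal of 19 proximal tubule markers was 591, 655, 647 and 683 in D19 mKPA, 346 and 353 in D19 v2 explants and 737 and 767 in D19 v1 explants. It was 38.3 and 41.8 in E12.5 kidneys, 3673 and 3461 in P0 kidneys and 31540.5 and 30942 in P45 kidneys. The summed signal thus moved with age and with culture in the same direction as most members, and its part in the members' changes was not tested. In bulk RNA, fewer cells of a type and less RNA per cell cannot be told apart. Markers of other cells moved too, and are given beside the members they move with.

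**Figure D1:**
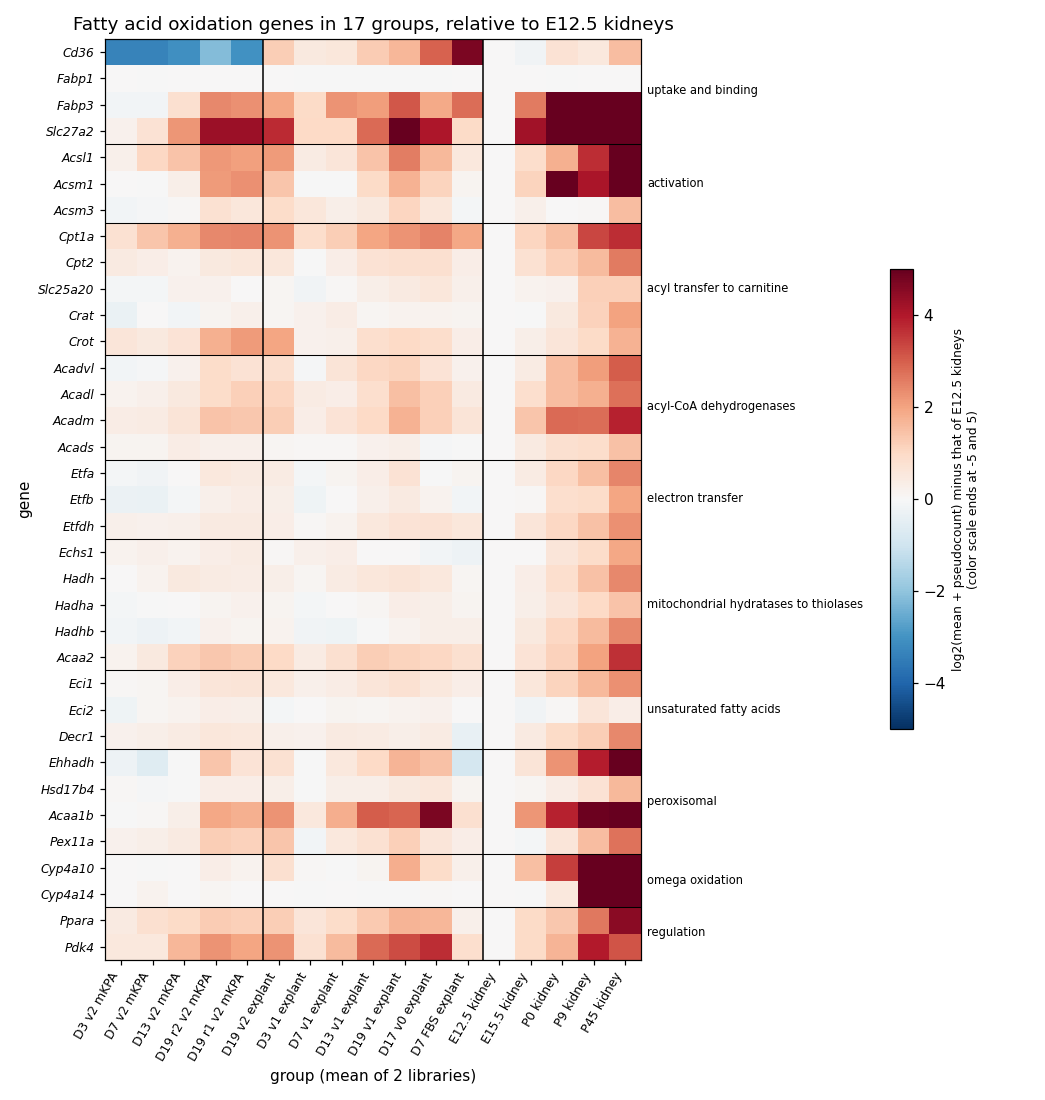
Level of each of the 35 genes, grouped by role, in the 17 groups (mKPA, then explants, then kidneys, left to right), as log2(mean signal + 0.962) minus the same value in E12.5 kidney, with the colour scale ending at -5 and 5. P45 kidney is the highest group for 30 of the 34 tested genes, and Cd36 is low throughout the mKPA columns.

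The heatmap of all 35 genes shows 1 pattern shared by most of them. P45 kidney was the highest of the 17 groups for 30 of the 34 tested members, against 25% of all tested genes. The exceptions were Eci2 and Pdk4, highest in P9 kidney, Crot, highest in D19 r1 mKPA, and Cd36, highest in D7 FBS explants. Group means followed age from E12.5 to P45 in 25 members, against 13.8% of all genes. In v1 explants they followed the day of culture in 22 members, against 13.1%, and in mKPA in 16 members, against 14.4%, with r1 and r2 averaged at D19. In 13 members at least 1 culture group had a mean above P0 kidney, and in 21 none did. For this last count no share of all genes was taken, so it cannot be set against a background. Since the members were chosen with earlier results of these data known, these counts and shares describe them and are no independent test.

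In E15.5 kidneys 7 members rose over E12.5 kidneys and none fell by limma, where 6.45% of all genes rose and 3.17% fell. At an unadjusted p under 0.05, 24 members were higher and 0 lower, and the members' median log2 change was 0.47 against 0.00 for all genes. The largest rise was in Slc27a2, a fatty acid transporter and very-long-chain acyl-CoA synthetase of the proximal tubule. Its signal was 25.2 and 28.5 in E15.5 kidneys and 0.735 and 0.3898 in E12.5 kidneys, a log2 change of 4.20 ± 0.21 (limma, adjusted p = 3.21e-15). Fabp3, the heart-type fatty acid binding protein, had 9.601 and 12.9 in E15.5 and 1.06 and 1.05 in E12.5 kidneys (2.58 ± 0.22). For both genes the 2 libraries of each age lay far closer to each other than to those of the other age. Acadm, the medium-chain acyl-CoA dehydrogenase, rose by 1.39 ± 0.09, Cpt1a by 1.07 ± 0.10, and Acaa1b, a peroxisomal thiolase, by 2.20 ± 0.30. Acsm1, a medium-chain acyl-CoA synthetase, and the ω-hydroxylase Cyp4a10 were within 1 step in both E12.5 libraries. Cyp4a10 was at least 12.8-fold and Acsm1 at least 7.92-fold higher in E15.5 kidneys, counting 3 steps per library as the lower limit in E12.5. The Acsm1 log2 change was 1.09 ± 0.26 and dropped to 0.95 without E15.5 replicate 1, below the limit of 1. With a pseudocount of 3.85 instead of 0.962, the Cyp4a10 change was 0.57 and that of Acsm1 0.37, and neither was called. The largest adjusted p among the 7 was 0.00199 (Acsm1).

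In P0 kidneys 8 members rose over E15.5 kidneys and none fell by limma, against 4.31% of genes that rose and 0.748% that fell, with a median of 0.53 over members and 0.01 over all genes. The 3 largest rises were in Acsm1, Fabp3 and Slc27a2. Acsm1 had 30.8 and 34.1 in P0 and 1.42 and 0.992 in E15.5 kidneys (3.95 ± 0.26), so both P0 libraries stood well above both E15.5 libraries. Slc27a2 had 152 and 123 in P0 and 25.2 and 28.5 in E15.5 kidneys (2.31 ± 0.21), and Fabp3 rose by 2.48 ± 0.22. Among the acyl-CoA dehydrogenases, which take the first oxidative step, Acadm rose by 1.44 ± 0.09 and Acadvl, the very-long-chain enzyme, by 1.12 ± 0.10. In peroxisomes Acaa1b rose by 1.65 ± 0.30 and Ehhadh, a bifunctional enzyme holding hydratase and dehydrogenase activities, by 1.57 ± 0.20. Cyp4a10 rose by 1.89 ± 0.22. The largest adjusted p among the 8 was 0.000142 (Acaa1b), and at an unadjusted p under 0.05 31 members were higher and 0 lower.

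In P9 kidneys 8 members rose over P0 kidneys and none fell under limma, with 5.79% of genes higher and 5.94% lower, and at an unadjusted p under 0.05 26 members were higher and 1 lower. Acadm, Slc27a2 and Acsm1, called at P0, were not called here. Acadm had 225 and 211 in P9 and 222 and 218 in P0 kidneys (-0.01 ± 0.09), and the 2 ages overlapped. Slc27a2 differed by 0.25 ± 0.21 and Acsm1 by -0.99 ± 0.26, and Acsm1 was called lower without P0 replicate 1 (-1.06) or P9 replicate 1 (-1.27). Both members of ω-oxidation and both of regulation rose, as did 2 of the 4 peroxisomal members, 1 of the 3 of activation and 1 of the 5 of transfer to carnitine. Cyp4a14, a fatty acid ω-hydroxylase, had 51.3 and 66.6 in P9 and 0.601 and 0.383 in P0 kidneys (5.36 ± 0.18). Its close relative Cyp4a10 had 69.1 and 76.8 in P9 and 12.8 and 7.49 in P0 kidneys (2.77 ± 0.22). Before P9, Cyp4a14 had stayed under 1 in every kidney library. Cpt1a, the rate-limiting carnitine acyltransferase of the outer mitochondrial membrane, had 387 and 395 in P9 and 122 and 94.8 in P0 kidneys (1.85 ± 0.10). Pdk4, a kinase that shuts off pyruvate dehydrogenase and so the use of glucose carbon, had 51.5 and 31.7 in P9 and 10.3 and 5.79 in P0 kidneys (2.25 ± 0.21). Ppara had 12.03 and 11.7 in P9 and 4.504 and 3.99 in P0 kidneys (1.30 ± 0.21). In these 5 genes the P9 libraries lay above the P0 libraries without overlap. Acsl1, a long-chain acyl-CoA synthetase, rose by 1.91 ± 0.12, Ehhadh by 1.67 ± 0.20 and Acaa1b by 1.06 ± 0.30. The largest adjusted p among the 8 was 0.00545 (Acaa1b), and the Acaa1b change was 0.91 without P0 replicate 1 (adjusted p = 0.0555) and 0.84 with columns rescaled to equal totals. The Ppara change was 0.96 with a pseudocount of 3.85. Transcripts of the mitochondrial genome took 14.7% and 20.2% of signal in P9 kidneys and 5.06% and 3.66% in P0 kidneys, and their part in these changes was not tested.

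In P45 kidneys 17 members rose over P9 kidneys, the most of any step between kidney ages, and none fell under limma, with 7.77% of all genes higher and 6.84% lower. At an unadjusted p under 0.05, 30 members were higher and 2 lower. The members' median was 0.99 and that of all genes -0.01. Slc27a2 had 1505 and 1541 in P45 and 173 and 152 in P9 kidneys (3.22 ± 0.21), and Cyp4a14 had 488 and 539.5 in P45 and 51.3 and 66.6 in P9 kidneys (3.11 ± 0.18). Ehhadh had 293 and 308 in P45 and 62.7 and 81.5 in P9 kidneys (2.05 ± 0.20). In each of these the 2 ages were far apart relative to the gap between replicates. Acsm1 rose by 2.76 ± 0.26, Cyp4a10 by 2.32 ± 0.22 and Ppara by 1.86 ± 0.21. Acadm had 448 and 458 in P45 and 225 and 211 in P9 kidneys (1.05 ± 0.09). The other members called higher were Acsl1, Acaa2, Acaa1b, Acsm3, Decr1, Pex11a, Etfb, Cpt2, Cd36 and Echs1, with log2 changes between 1.02 (Echs1) and 1.69 (Acsl1). Pdk4 was lower instead, with 25.4 and 22.1 in P45 and 51.5 and 31.7 in P9 kidneys (-0.75 ± 0.21, adjusted p = 0.00538), short of the fold limit but past it without P9 replicate 2 (-1.09). Cpt1a had 499.7 and 498 in P45 and 387 and 395 in P9 kidneys (0.35 ± 0.10), also short of it.

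Several of the smaller P45 calls were not firm. The Cd36 call was lost when any 1 of the 4 libraries was left out (adjusted p = 0.0533 to 0.0992). Cpt2 changed by 0.82 without P9 replicate 1, Echs1 by 0.94 without P45 replicate 1, and Etfb by 0.88 without P45 replicate 1 and 0.997 without P9 replicate 2. With columns rescaled to equal totals the median of all genes shifted by -0.32 and 10 of the 17 members were still called, the 7 lost being Acadm, Cpt2, Etfb, Decr1, Pex11a, Echs1 and Cd36. The proximal tubule marker sum was 31540.5 and 30942 in P45 and 5923 and 6278 in P9 kidneys, and its part in these changes was not tested.

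**Figure D2:**
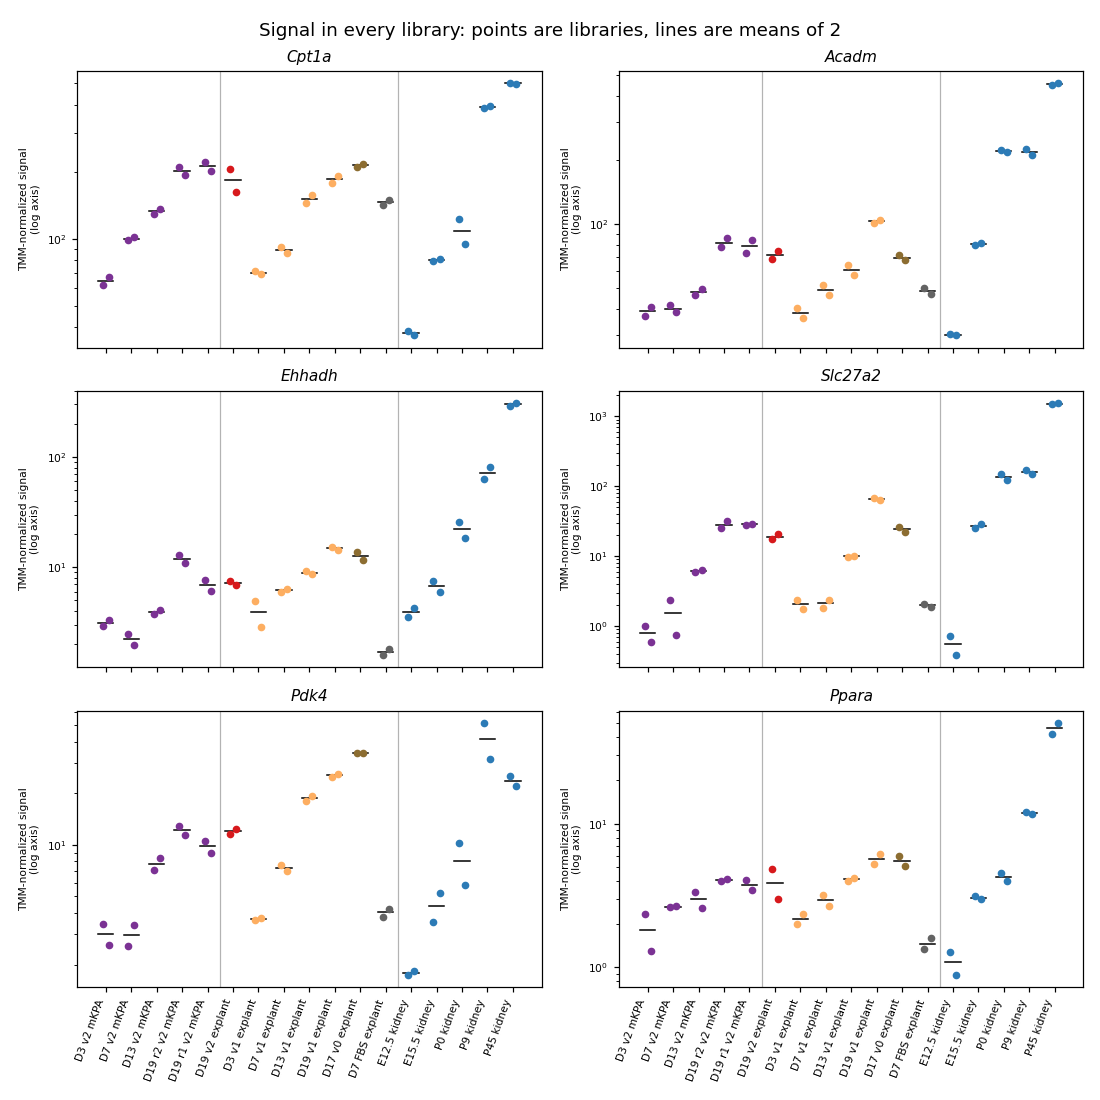
Signal in each library (log axis) for Cpt1a, Acadm, Ehhadh, Slc27a2, Pdk4 and Ppara in mKPA, explants and kidneys, 2 points per group. Slc27a2 spans 0.390 in an E12.5 kidney to 1541 in a P45 kidney, while Cpt1a in D19 mKPA (193 to 221) lies above both P0 kidneys (122 and 94.8).

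The plot of signal by library for 6 of the members shows that genes of the same pathway passed the fold limit at different steps. Cpt1a lies on chromosome 19, 3372334-3435733 (mm39), Acadm on chromosome 3, 153627994-153650269, Ehhadh on chromosome 16, 21580037-21606557, Slc27a2 on chromosome 2, 126394327-126430163, Pdk4 on chromosome 6, 5483351-5496309 and Ppara on chromosome 15, 85619184-85687020. Slc27a2 was called higher at E15.5, P0 and P45, Acadm at the same 3 steps, Cpt1a at E15.5 and P9, Ehhadh at P0, P9 and P45, Ppara at P9 and P45, and Pdk4 at P9. Steps not named here can hold rises under the fold limit. At E15.5 Ppara had 3.13 and 2.98, against 1.29 and 0.891 at E12.5 (0.98), and passed the limit without E12.5 replicate 1 (1.12). Pdk4 had 3.56 and 5.22 against 1.75 and 1.84 (0.94), and passed it without E15.5 replicate 1 (1.17). At P0 Pdk4 changed by 0.72, and by 1.09 without P0 replicate 2. Hadha and Hadhb, which encode the α and β subunits of the trifunctional protein that completes long-chain β-oxidation, were not called at any of these steps. Hadha had 151 and 145 in E12.5, 173 and 190.2 in E15.5, 219.8 and 234 in P0, 289.7 and 308 in P9 and 415 and 377 in P45 kidneys. Hadhb had 20.02 and 21.95 in E12.5, 29.5 and 30.2 in E15.5, 44.6 and 42.6 in P0, 63.9 and 66.5 in P9 and 115 and 115 in P45 kidneys. In both genes the 2 libraries of each age lay above those of the age before, by steps below the fold limit.

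The promoters of 4 members are printed because these genes stand for the different courses above: Hadha for small steps, Cpt1a and Slc27a2 for strong rises, and Fabp1 for a member near 0. Each runs from 250 bases before to 50 bases after the start site, 5′ to 3′ along the gene, from RefSeq on GRCm38.p6. Capitals mark GGGCGG, a GC box, on either strand in Hadha, and AGGTCA on either strand in the other 3, the half-site bound by Ppara and many other nuclear receptors, together in Fabp1 with the looser repeat AGGNCANAGGNCA. GGGCGG also occurs in Cpt1a and Slc27a2, where it is left unmarked, so the marks do not separate these courses. The window of Hadha is chr5:30154931-30155230 on the minus strand, that of Cpt1a chr19:3323051-3323350 on the plus strand, that of Slc27a2 chr2:126552774-126553073 on the plus strand and that of Fabp1 chr6:71199629-71199928 on the plus strand.
Hadha: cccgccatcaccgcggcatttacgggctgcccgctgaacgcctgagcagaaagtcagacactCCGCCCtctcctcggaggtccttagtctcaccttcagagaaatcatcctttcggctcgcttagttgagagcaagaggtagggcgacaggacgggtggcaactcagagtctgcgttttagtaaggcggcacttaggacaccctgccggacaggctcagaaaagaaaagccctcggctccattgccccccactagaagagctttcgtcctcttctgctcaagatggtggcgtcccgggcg
Cpt1a: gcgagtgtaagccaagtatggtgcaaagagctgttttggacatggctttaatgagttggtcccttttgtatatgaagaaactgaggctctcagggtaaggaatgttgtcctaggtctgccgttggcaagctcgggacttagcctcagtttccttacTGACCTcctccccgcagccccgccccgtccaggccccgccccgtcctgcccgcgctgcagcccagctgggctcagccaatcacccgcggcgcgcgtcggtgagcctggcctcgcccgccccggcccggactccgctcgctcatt
Slc27a2: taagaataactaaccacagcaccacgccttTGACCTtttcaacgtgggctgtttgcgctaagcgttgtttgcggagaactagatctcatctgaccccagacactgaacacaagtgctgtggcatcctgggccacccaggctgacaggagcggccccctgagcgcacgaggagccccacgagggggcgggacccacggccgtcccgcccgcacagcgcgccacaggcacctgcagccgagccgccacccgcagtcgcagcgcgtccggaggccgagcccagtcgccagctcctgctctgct
Fabp1: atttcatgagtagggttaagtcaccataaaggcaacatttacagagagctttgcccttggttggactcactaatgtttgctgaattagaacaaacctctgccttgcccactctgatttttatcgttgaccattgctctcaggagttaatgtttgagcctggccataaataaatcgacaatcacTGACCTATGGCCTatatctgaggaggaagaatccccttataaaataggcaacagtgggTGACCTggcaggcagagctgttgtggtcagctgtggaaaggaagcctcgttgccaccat
Promoters were found for 29 of the 35 members and for 27025 genes in all. A gene with more than 1 promoter counted as a match if any of them matched. AGGTCA on either strand was in 8 of the 29, or 27.6%, against 18.1% of the 27025 genes, and GGGCGG was in 20, or 69.0%, against 38.2%. The 8 with AGGTCA were Acadm, Acadvl, Cpt1a, Slc27a2, Acsm1, Fabp1, Echs1 and Cd36. Other members that rose, such as Ehhadh, Acsl1, Pdk4, Acaa1b and Fabp3, had no AGGTCA in their windows. The perfect repeat AGGTCANAGGTCA was in none of the 29 and in 0.0481% of the 27025 genes. Among the members the looser repeat was in Fabp1 alone, and in 0.451% of the 27025 genes, and TATAAA was in Fabp1 alone, and in 15.7%. A match describes the letters of these windows and is not a shown binding site. Hadha and Hadhb are transcribed away from each other from start sites 273 bases apart, and their windows share 228 bases.

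In D3 v1 explants no member was called against E12.5 kidneys by limma, where 5.27% of all genes rose and 3.21% fell. At an unadjusted p under 0.05, 10 members were higher and 0 lower. Slc27a2, Fabp3 and Cd36 were called higher without D3 replicate 2 (log2 changes of 1.15, 1.19 and 1.03) and Slc27a2 without E12.5 replicate 1 (1.16). Cpt1a had the smallest adjusted p of the members, with 71.3 and 69.4 in D3 v1 explants and 38.5 and 36.9 in E12.5 kidneys (0.88 ± 0.10, adjusted p = 1.28e-07). Both Cpt1a libraries of the explants were above both of the kidneys, but the change stayed under the fold limit. Ehhadh had 4.94 and 2.85 in D3 v1 explants and 3.54 and 4.29 in E12.5 kidneys, and these overlapped.

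In D19 v1 explants 15 members rose over D3 v1 explants and none fell by limma, against 10.5% of all genes that rose and 5.96% that fell, and 28 were higher and 0 lower at an unadjusted p under 0.05, with medians of 0.79 over members and -0.01 over all genes. Slc27a2 had 2.39 and 1.77 at D3, 1.84 and 2.38 at D7, 9.91 and 10.04 at D13 and 68.9 and 62.96 at D19 (4.46 ± 0.21 for D19 over D3). Its D7 libraries lay within the range of D3, and those of D13 and D19 above it. Cpt1a had 71.3 and 69.4 at D3, 91.5 and 86.6 at D7, 145 and 158 at D13 and 178 and 191 at D19 (1.38 ± 0.10). Pdk4 had 3.64 and 3.74 at D3, 7.61 and 7.08 at D7, 18.1 and 19.4 at D13 and 24.9 and 25.97 at D19 (2.50 ± 0.21). In Cpt1a and Pdk4 no library of a later day fell below one of an earlier day.

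The members called in v1 explants spanned uptake, activation, dehydrogenation and peroxisomes. In uptake and activation Fabp3 rose by 2.16 ± 0.22 and Acsl1 by 2.13 ± 0.12, and Acsm1, near its lowest values at D3, was at least 16.2-fold higher at D19. Among acyl-CoA dehydrogenases Acadm rose by 1.41 ± 0.09, Acadvl by 1.20 ± 0.10 and Acadl, the long-chain enzyme, by 1.10 ± 0.13. In peroxisomes Acaa1b rose by 2.37 ± 0.30, Ehhadh by 1.73 ± 0.20 and Pex11a, which promotes the division of peroxisomes, by 1.36 ± 0.17. Cyp4a10 rose by 1.75 ± 0.22 and Ppara by 1.08 ± 0.21. Acadl changed by 0.95 without D3 replicate 2, and Ppara by 0.999 without D3 replicate 1 and 0.99 without D19 replicate 2. With a pseudocount of 3.85 the changes of Cyp4a10, Acsm1 and Ppara were 0.71, 0.68 and 0.66, and none was called. Cd36 was also called (1.19 ± 0.35), yet its libraries overlapped, with 44.97 and 17.6 at D19 and 19.7 and 7.03 at D3. With only these 2 groups fitted its adjusted p was 0.373. The Cd36 change was 0.53 without D19 replicate 1 and 0.50 without D3 replicate 2. The proximal tubule marker sum was 737 and 767 at D19 and 117 and 73.04 at D3, and its part in these rises was not tested.

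In D3 mKPA 2 members were lower than in D3 v1 explants and none higher by limma, against 5.42% of all genes lower and 2.25% higher, and at an unadjusted p under 0.05 the counts were 8 lower and 3 higher. Cd36, a fatty acid translocase also found on macrophages and endothelial cells, had 0.04996 and 0.0539 in D3 mKPA and 19.7 and 7.03 in D3 v1 explants. Both mKPA libraries were at their lowest value, which made Cd36 at least 85.8-fold lower. The summed signal of 8 macrophage markers, all of them called lower in mKPA, was 3.55 and 2.26 in D3 mKPA and 101 and 47.6 in D3 v1 explants, and its part in the difference was not tested. Fabp3 had 1.28 and 0.431 in D3 mKPA and 3.62 and 2.31 in D3 v1 explants (-1.13 ± 0.22). The Fabp3 change was -0.89 without explant replicate 1 and -0.79 without mKPA replicate 2, and -0.53 with a pseudocount of 3.85. Cpt1a had 61.7 and 66.9 in D3 mKPA and 71.3 and 69.4 in D3 v1 explants, and Acadm had 36.9 and 40.7 in D3 mKPA and 40.04 and 35.9 in D3 v1 explants, so that neither gene moved beyond the fold limit. The 2 groups also differed in medium, v2 in mKPA and v1 in the explants.

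In D19 mKPA 11 members rose over D3 mKPA and none fell by limma, against 10.9% of all genes that rose and 6.45% that fell. The log2 change was positive in all 34, and 29 were higher and 0 lower at an unadjusted p under 0.05. The members' median was 0.65 and that of all genes 0.01. D19 here joins r1 and r2 with equal weight, and their 4 libraries are listed in that order. Slc27a2 had 0.999 and 0.593 at D3, 2.34 and 0.752 at D7, 6.04 and 6.26 at D13 and 28.2, 29.1, 25.3 and 31.5 at D19 (4.07 ± 0.18 for D19 over D3). Cpt1a had 61.7 and 66.9 at D3, 98.7 and 101 at D7, 129 and 136 at D13 and 221, 202, 209 and 193 at D19 (1.67 ± 0.09). In both genes every D19 library lay above every earlier one. Crot, the peroxisomal octanoyltransferase that loads shortened chains onto carnitine for export to mitochondria, had 51.6 and 56.7 at D3, 48.5 and 52.4 at D7, 52.1 and 61.5 at D13 and 168, 152, 133 and 115 at D19 (1.36 ± 0.10). The D19 libraries of Crot stood apart from all those of D3 to D13, which lay close together. Acsm1 was at its lowest value in both D3 libraries and at least 24-fold higher at D19. Fabp3 rose by 2.53 ± 0.19, Acsl1 by 1.87 ± 0.10 and Acaa1b by 1.87 ± 0.26. Pdk4 rose by 1.58 ± 0.19 and Ehhadh by 1.29 ± 0.17.

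Acaa2, the mitochondrial thiolase that releases acetyl-CoA, rose by 1.11 ± 0.10 in the same comparison and by 0.92 without D3 replicate 1. Acadm had 36.9 and 40.7 at D3, 41.5 and 38.4 at D7, 46.5 and 49.2 at D13 and 73.03, 84.3, 77.7 and 85.8 at D19 (1.03 ± 0.08). Leaving out D3 replicate 1, r1 replicate 2 or r2 replicate 2 brought the Acadm change to 0.96, 0.98 and 0.99. With a pseudocount of 3.85 it was 0.98, that of Ehhadh 0.90 and that of Acsm1 0.95. Ppara had 4.03, 3.44, 3.97 and 4.096 at D19 and 2.35 and 1.29 at D3 (0.82 ± 0.18), below the fold limit though every D19 library was above both D3 libraries, and past it without D3 replicate 1 (1.10). The proximal tubule marker sum was 591, 655, 647 and 683 at D19 and 21.5 and 24.6 at D3, and its part in these rises was not tested. Between r2 and r1 no member was called by limma, where 0.166% of all genes were called in either direction, and at an unadjusted p under 0.05 the counts were 2 higher and 1 lower. The differences ran from -0.37 in Crot to 0.84 in Cd36.

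**Figure D3:**
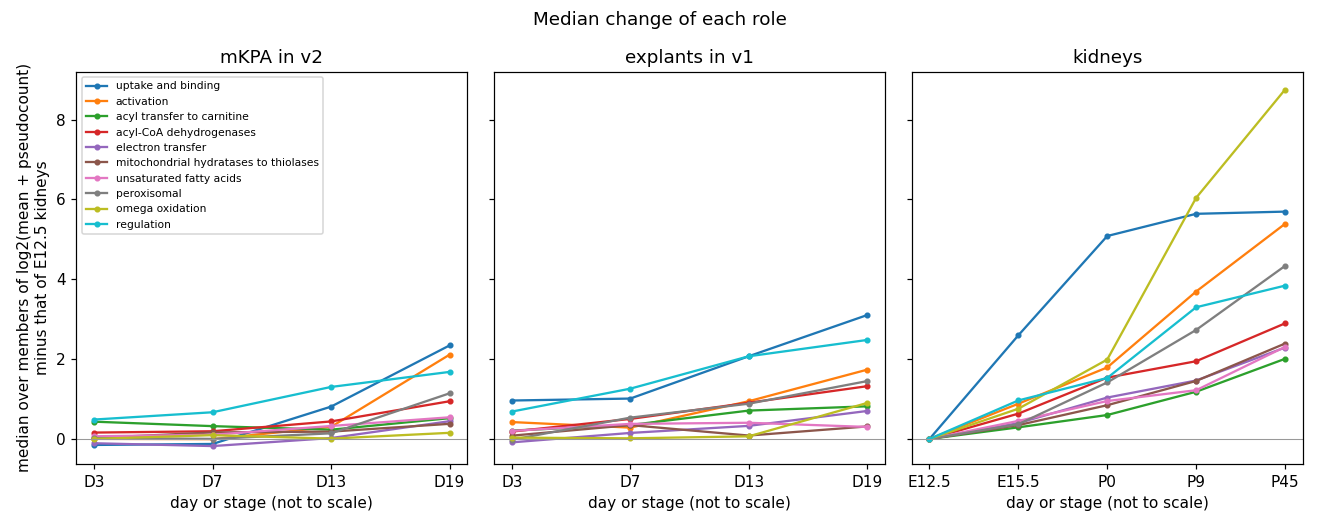
Median log2 level of the members of each role relative to E12.5 kidney, by day in mKPA (D3 to D19) and v1 explants and by age in kidneys. The ω-oxidation pair, Cyp4a10 and Cyp4a14, reaches 8.75 in P45 kidneys, the highest of any role.

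The plot of medians by role sets the courses of mKPA, v1 explants and kidneys side by side. Whether the rise from D3 to D19 differed between mKPA and v1 explants was tested as a difference of log2 changes. It was called for 1 member, lower in mKPA, where 4.03% of all genes were lower and 5.48% higher. That member was Cyp4a10, with 0.173, 0.215, 0.168 and 0.449 in D19 and 0.04996 and 0.0539 in D3 mKPA, against 2.71 and 2.48 in D19 and 0.1496 and 0.0492 in D3 v1 explants. The D19 explant libraries were the only ones of these 10 above 1, and the difference was -1.49 ± 0.29 (limma, adjusted p = 0.000404). Its size depended on the pseudocount, at -2.36 with 0.241 and -0.64, not called, with 3.85. For Crot the difference was 0.59 ± 0.15 (adjusted p = 0.00514), for Slc27a2 -0.39 ± 0.27 with a 95% interval of -0.95 to 0.17, and for Cpt1a 0.29 ± 0.14 with an interval of 0.01 to 0.57. None of these 3 passed the fold limit. Pdk4 differed by -0.92 ± 0.28 and was called lower without D3 mKPA replicate 2 (-1.08). Medium differed with the kind of culture here, and the 2 cannot be told apart.

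Medium could be compared within explants of the same kind. In D7 v1 explants 2 members were higher and 1 lower than in D7 FBS explants, against 5.72% of all genes higher and 5.62% lower. The counts at an unadjusted p under 0.05 were 8 higher and 5 lower. Ehhadh had 6.01 and 6.29 in v1 and 1.599 and 1.805 in FBS explants (1.42 ± 0.20), without overlap. Acaa1b had 8.69 and 6.73 in v1 and 4.299 and 2.38 in FBS explants (1.04 ± 0.30). The Acaa1b change was 0.71 without FBS replicate 2 and 0.88 without v1 replicate 1. Neither gene was called with a pseudocount of 3.85, where Ehhadh changed by 0.85 and Acaa1b by 0.69. Cpt1a had 91.5 and 86.6 in v1 and 142 and 149 in FBS explants (-0.70 ± 0.10, adjusted p = 3.81e-06), lower in v1 in both libraries but short of the fold limit.

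In D19 v2 explants 4 members were lower than in D19 v1 explants and none higher by limma, against 1.71% of all genes lower and 1.13% higher, and at an unadjusted p under 0.05 17 were lower and 1 higher. Slc27a2 had 17.6 and 20.6 in v2 and 68.9 and 62.96 in v1 explants (-1.74 ± 0.21), and Fabp3 had 6.35 and 7.13 in v2 and 15.8 and 16.98 in v1 explants (-1.17 ± 0.22). In both genes the v2 libraries lay well below the v1 libraries, though with a pseudocount of 3.85 the Fabp3 change was -0.93. Pdk4 had 11.6 and 12.4 in v2 and 24.9 and 25.97 in v1 explants (-1.03 ± 0.21), and Cyp4a10 had 0.421 and 1.19 in v2 and 2.71 and 2.48 in v1 explants (-1.04 ± 0.22). These 2 calls sat at the limit. Pdk4 changed by -0.998 without v1 replicate 2 and -0.99 without v2 replicate 1, and Cyp4a10 by -0.999 without v1 replicate 1 and -0.73 without v2 replicate 1. With a pseudocount of 3.85 the changes were -0.89 in Pdk4 and -0.47 in Cyp4a10. Crot was higher instead, with 143 and 139.7 in v2 and 76.99 and 65.2 in v1 explants (0.99 ± 0.11, adjusted p = 1.16e-06), just under the fold limit and past it without v1 replicate 1 (1.10) or v2 replicate 2 (1.004). The proximal tubule marker sum was 346 and 353 in v2 and 737 and 767 in v1 explants, and its part in these falls was not tested.

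In D19 v1 explants 2 members were higher and 2 lower than in D17 v0 explants, against 2.63% of all genes higher and 2.82% lower, and here the day of culture differed with the medium. The counts at an unadjusted p under 0.05 were 13 higher, among them all 4 acyl-CoA dehydrogenases, and 3 lower. Slc27a2 had 68.9 and 62.96 in v1 and 26.6 and 21.96 in v0 explants (1.41 ± 0.21), and Fabp3 rose by 1.19 ± 0.22, or 0.95 with a pseudocount of 3.85. Without v0 replicate 1 the higher count was 5, with Acsm1 (1.09), Acsm3 (1.05) and Cyp4a10 (1.002) added. Acaa1b had 12.97 and 22.6 in v1 and 45.2 and 82.96 in v0 explants (-1.78 ± 0.30), a call lost when only these 2 groups were fitted (adjusted p = 0.0646). The 2 v0 libraries held the highest Acaa1b signal of all culture libraries. Pdk4 had 24.9 and 25.97 in v1 and 34.6 and 34.5 in v0 explants (-0.43 ± 0.21). Cd36 was called lower (-1.42 ± 0.35) but changed by -1.21 without v0 replicate 2 and -0.77 without v1 replicate 2, with adjusted p of 0.0531 and 0.17, and with only these 2 groups fitted its adjusted p was 0.191.

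Cd36 followed a course of its own among the members. It was 254 and 267 in D7 FBS explants, the highest of all groups, and lower by -4.11 ± 0.35 in D7 v1 explants, which had 15.1 and 13.2 (limma, adjusted p = 2.25e-09). In mKPA it was 0.04996 and 0.0539 at D3, 0.0441 and 0.0501 at D7, 0.0535 and 0.472 at D13 and 0.518, 0.0537, 1.79 and 0.786 at D19, against 24.6 and 21.1 in D19 v2 explants. Every mKPA library was below every explant and kidney library. Cd36 was the single member called in D19 mKPA over D19 v2 explants (-3.86 ± 0.31), where 3.29% of all genes were lower and 2.15% higher. Members at an unadjusted p under 0.05 in that comparison numbered 7 higher and 2 lower. The summed signal of 8 macrophage markers was 137 and 130 in D7 v1 explants and 1863 and 1868 in D7 FBS explants. It was 8.89, 10.3, 7.28 and 9.83 in D19 mKPA and 473 and 359.7 in D19 v2 explants, and in mKPA 3 to 6 of the 8 markers stood at the lowest value. All 8 were called lower in D7 v1 explants over FBS and in D19 mKPA over D19 v2 explants. The summed signal of 8 endothelial markers was 24.1 to 60.5 in mKPA and 697 to 910.3 in kidneys, with 70.3 and 67.4 in D19 v2 explants, 104 and 122 in D7 v1 explants and 112 and 142 in D7 FBS explants. The part of these cells in the Cd36 differences was not tested.

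**Figure D4:**
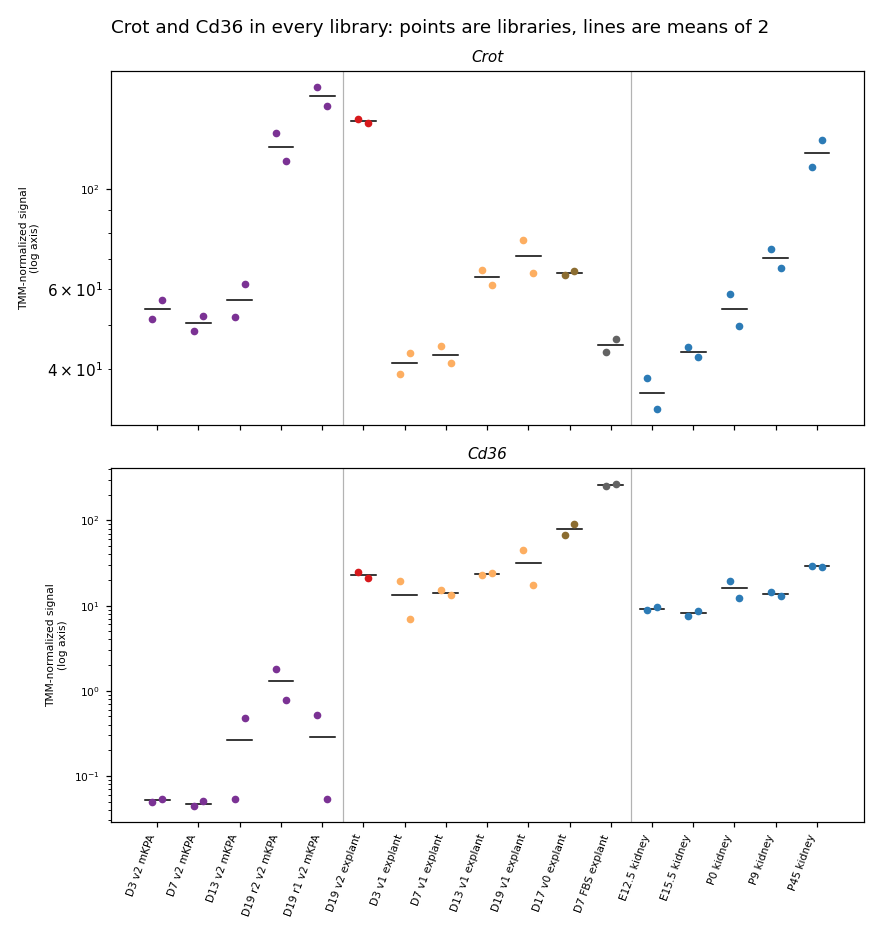
Signal in each library (log axis) for Crot and Cd36 in mKPA, explants and kidneys, 2 points per group. Crot in D19 mKPA (115 to 168) and D19 v2 explants (143 and 139.7) is above P45 kidneys (112 and 128) in 5 of 6 libraries, and Cd36 is 0.0441 to 1.79 in mKPA and 254 and 267 in D7 FBS explants.

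Against newborn kidneys, 1 member was called higher in D19 mKPA and 1 in D19 v2 explants. The v1 and v0 explants were not tested against P0 kidneys. In D19 mKPA over P0 kidneys 1 of 34 members was higher and 8 lower, against 5.68% and 6.76% of all genes. In D19 v2 explants over P0 kidneys 1 was higher and 7 lower, against 7.16% and 9.03%. The medians were -0.47 in mKPA and -0.53 in v2 explants over members, and -0.04 and -0.08 over all genes. Both comparisons use the same 2 P0 libraries, so their values are set side by side and not counted as 2 separate tests. As the plot of Crot and Cd36 by library shows, the higher member was Crot in both. Crot (mm39, chromosome 5, 9016033-9047324) had 168, 152, 133 and 115 in D19 mKPA, 143 and 139.7 in D19 v2 explants and 58.6 and 49.8 in P0 kidneys. Every D19 culture library in v2 medium lay above both P0 libraries, with log2 changes of 1.37 ± 0.10 in mKPA and 1.37 ± 0.11 in v2 explants. In D19 v1 explants Crot was 76.99 and 65.2. Acsm3, not called over P0 in v2 explants (0.86 ± 0.29), was called higher there without P0 replicate 1 (1.07) or explant replicate 1 (1.13).

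The members called lower than in P0 kidneys were Slc27a2, Fabp3, Acsm1, Acadm, Ehhadh, Acaa1b and Cyp4a10 in both cultures, and Cd36 in mKPA. They were 3 of the 3 tested members of uptake and binding in mKPA and 2 in v2 explants, 2 of the 4 peroxisomal members, 1 of the 3 of activation, 1 of the 4 acyl-CoA dehydrogenases and 1 of the 2 of ω-oxidation in each. Slc27a2 had 28.2, 29.1, 25.3 and 31.5 in D19 mKPA, 17.6 and 20.6 in D19 v2 explants and 152 and 123 in P0 kidneys, with changes of -2.22 ± 0.18 and -2.78 ± 0.21. Acsm1 had 2.88, 5.105, 4.14 and 2.86 in D19 mKPA, 1.93 and 1.43 in D19 v2 explants and 30.8 and 34.1 in P0 kidneys, with changes of -2.85 ± 0.23 and -3.67 ± 0.26. Acadm had 73.03, 84.3, 77.7 and 85.8 in D19 mKPA, 68.7 and 74.3 in D19 v2 explants and 222 and 218 in P0 kidneys, with changes of -1.45 ± 0.08 and -1.61 ± 0.09. In these 3 genes no culture library came near the P0 libraries. Fabp3 changed by -2.73 ± 0.19 in mKPA and -3.13 ± 0.22 in v2 explants, Cyp4a10 by -3.16 ± 0.19 and -2.65 ± 0.22, and Acaa1b by -1.98 ± 0.26 and -1.58 ± 0.30. Ehhadh had 7.66, 6.02, 12.9 and 10.9 in D19 mKPA, 7.499 and 6.89 in D19 v2 explants and 25.9 and 18.3 in P0 kidneys, with changes of -1.19 ± 0.17 and -1.48 ± 0.20. The Ehhadh change in mKPA was -0.94 without P0 replicate 1 and -0.98 with a pseudocount of 3.85. Cd36 changed by -3.33 ± 0.31 in mKPA and by 0.52 ± 0.35 in v2 explants.

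Cpt1a was above newborn level in both cultures, and neither regulator was called. Cpt1a had 221, 202, 209 and 193 in D19 mKPA, 205 and 162 in D19 v2 explants and 122 and 94.8 in P0 kidneys. All 6 culture libraries were above both P0 libraries, with changes of 0.93 ± 0.09 (adjusted p = 1.47e-09) and 0.76 ± 0.10 (adjusted p = 7.86e-07), under the fold limit. Without P0 replicate 1 the Cpt1a change in mKPA was 1.11 and past it. Ppara had 4.03, 3.44, 3.97 and 4.096 in D19 mKPA, 4.801 and 2.97 in D19 v2 explants and 4.504 and 3.99 in P0 kidneys. The Ppara change was -0.10 in mKPA, with a 95% interval of -0.48 to 0.27, and -0.13 in v2 explants, with an interval of -0.56 to 0.30. Pdk4 had 10.6, 9.03, 12.9 and 11.4 in D19 mKPA, 11.6 and 12.4 in D19 v2 explants and 10.3 and 5.79 in P0 kidneys, with changes of 0.44 ± 0.19 and 0.57 ± 0.21 that were not called. The proximal tubule marker sum was 591, 655, 647 and 683 in D19 mKPA, 346 and 353 in D19 v2 explants and 3673 and 3461 in P0 kidneys, and its part in these differences was not tested. The sum over 7 adipocyte markers, which include Fabp4, was 3.23, 4.997, 8.61 and 4.71 in D19 mKPA, 14.9 and 8.44 in D19 v2 explants and 138 and 181 in P0 kidneys. In P0 kidneys nearly all of this sum was Fabp4, which is also a gene of endothelial cells. Without Fabp4 the mean of the sum was not higher in P0 kidneys than in the cultures, so it does not show more adipocyte signal there.

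**Figure D5:**
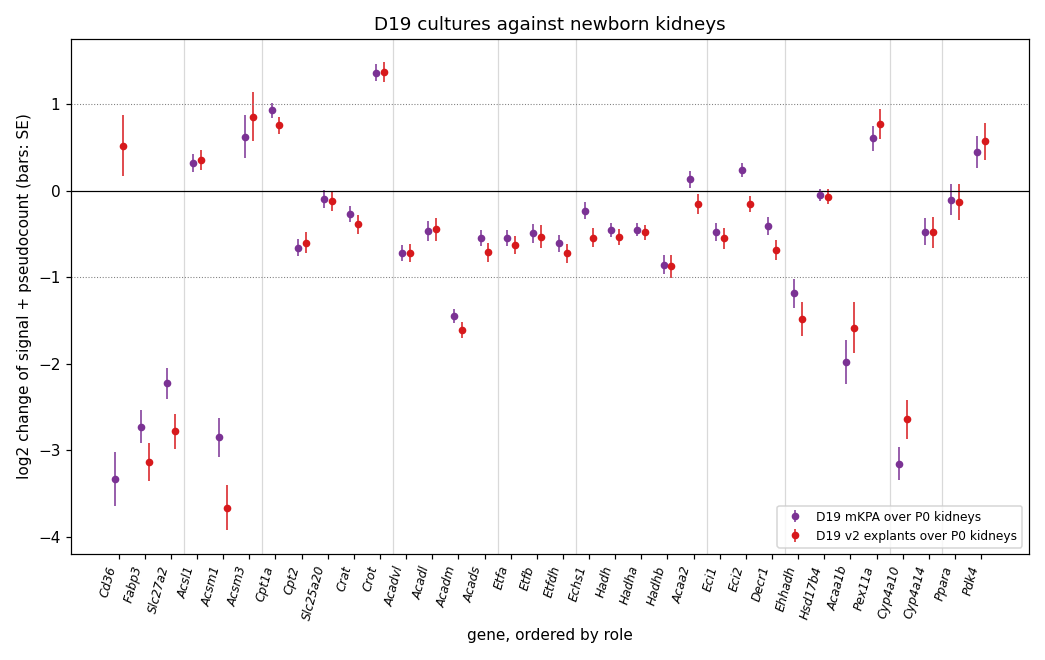
Log2 change ± SE of the 34 tested members in D19 mKPA and in D19 v2 explants over the same 2 P0 kidneys, genes grouped by role. Crot lies at 1.37 in both, and Acsm1, Fabp3, Slc27a2 and Cyp4a10 lie between -2.22 and -3.67.

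The plot of changes over P0 places the enzymes of the mitochondrial matrix between these extremes. None of the 5 members from hydratases to thiolases was called by limma in either culture, though 4 were lower at an unadjusted p under 0.05 in each, with medians of -0.45 in mKPA and -0.54 in v2 explants. Likewise none of the 3 electron transfer members, which pass electrons from the dehydrogenases to the respiratory chain, was called, though all 3 were lower at an unadjusted p under 0.05 in each, with medians of -0.55 and -0.62. Hadha had 171, 169, 168 and 155 in D19 mKPA, 174 and 151 in D19 v2 explants and 219.8 and 234 in P0 kidneys. All 6 culture libraries of Hadha were below both P0 libraries by a modest margin (-0.45 ± 0.07 in mKPA and -0.48 ± 0.08 in v2 explants). Hadhb changed more in v2 explants, by -0.87, and passed the fold limit without explant replicate 1 (-1.095). As a share of the P0 mean, members had a median of 71.7% in D19 mKPA, 68.0% in D19 v2 explants and 79.0% in D19 v1 explants, where the median of all genes was 96.1%, 93.0% and 97.1%.

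Against adult kidneys nearly all members were lower. In D19 mKPA over P45 kidneys 31 of 34 members were lower and none higher by limma, against 16.3% of all genes lower and 14.5% higher. In D19 v2 explants over P45 kidneys 29 were lower and none higher, against 17.2% and 14.6%. At an unadjusted p under 0.05, 32 were lower and 1 higher in each. The median was -1.90 in mKPA and -1.99 in v2 explants. The largest gaps were in ω-oxidation. Cyp4a14 had 0.0576, 0.0537, 0.168 and 0.0561 in D19 mKPA, 0.03504 and 0.119 in D19 v2 explants and 488 and 539.5 in P45 kidneys. The 6 culture libraries held 1 to 3 steps each, and in v2 explants Cyp4a14 was at least 2230-fold lower than in P45. Cyp4a10 changed by -8.25 ± 0.19 in mKPA and -7.74 ± 0.22 in v2 explants. Slc27a2 changed by -5.70 ± 0.18 and -6.25 ± 0.21, Ehhadh by -4.91 ± 0.17 and -5.21 ± 0.20, Acsm1 by -4.62 ± 0.23 and -5.44 ± 0.26, and Acaa1b by -4.53 ± 0.26 and -4.13 ± 0.30. Cpt1a, at 499.7 and 498 in P45 kidneys, was lower by -1.27 ± 0.09 in mKPA and -1.45 ± 0.10 in v2 explants, a smaller gap. Ppara, at 41.8 and 50.1 in P45 kidneys, changed by -3.27 ± 0.18 in mKPA and -3.29 ± 0.21 in v2 explants.

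The members not called against P45 were few. Crot changed by 0.23 ± 0.10 in mKPA and 0.24 ± 0.11 in v2 explants, Eci2, an isomerase for unsaturated chains, by -0.01 ± 0.08 and -0.40 ± 0.09, and Acsm3, a medium-chain synthetase, by -0.86 ± 0.25 and -0.63 ± 0.29, with -1.14 in mKPA without P45 replicate 1. Pdk4 was called in mKPA (-1.05 ± 0.19) and not in v2 explants (-0.93 ± 0.21), and in mKPA it changed by -0.96 without P45 replicate 1, in v2 explants by -1.02 without P45 replicate 2. Cd36 was called in mKPA (-4.19 ± 0.31) and not in v2 explants (-0.33 ± 0.35). Slc25a20, the carnitine-acylcarnitine translocase of the inner mitochondrial membrane, was called in both, but changed by -0.94 in mKPA without P45 replicate 1, and in v2 explants by -0.97 without P45 replicate 1 and -0.997 without explant replicate 2. With columns rescaled to equal totals, 23 members were lower in each comparison, with Acads, Cpt1a, Hadha, Slc25a20, Hsd17b4 and Pex11a lost in both and Pdk4 and Echs1 in mKPA. That rescaling shifted the median of all genes by 0.46 in mKPA and 0.45 in v2 explants, with 5287 genes higher and 1742 lower in mKPA, against 2790 and 3147 as deposited, and 5229 higher and 1880 lower in v2 explants, against 2807 and 3307. Under it Cpt1a was lower by -0.65 in mKPA and -0.83 in v2 explants. As a share of the P45 mean, members had a median of 26.4% in D19 mKPA, 24.9% in D19 v2 explants and 28.9% in D19 v1 explants, with the median of all genes at 101% in D19 mKPA and 104% in D19 v1 explants.

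Several members carry limits of the counting. Fabp1, the liver-type fatty acid binding protein, was 0.0350 to 0.119 in every library, at or near the lowest value, and was the member not tested. Of the 100-base windows of the longest annotated transcript, 65.2% in Etfb were also found in another gene, Gm45233, 22.6% in Acaa1b in Acaa1a, 21.7% in Fabp3 in the pseudogene Fabp3-ps1, and 12.7% in Cyp4a10 in any other gene, with Cyp4a32 alone at 9.8%. How the authors assigned such reads was not stated, so levels of these 4 genes are uncertain. Shares of Slc25a20, Eci2 and Hadhb windows in other genes were 4.22%, 1.84% and 0.303%.

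The rest of the pathway was read from lists of genes outside the 35. Of 38 other tested fatty acid oxidation genes, 21 were higher and 1 lower in P45 over P9 kidneys, where 7.77% and 6.84% of all genes were, led by the medium-chain synthetase Acsm5 (3.74 ± 0.21) and the peroxisomal oxidase Acox2 (3.65 ± 0.30). In D19 over D3, 8 of them were higher and 1 lower in mKPA, against 10.9% and 6.45% of all genes, and 11 higher and 2 lower in v1 explants, against 10.5% and 5.96%, with Acsm2 changing by 4.51 ± 0.22 in mKPA and 4.90 ± 0.25 in v1 explants. Over P0 kidneys, 1 was higher and 4 lower in D19 mKPA and 1 higher and 8 lower in D19 v2 explants. Against the same P0 libraries 5.68% of all genes were higher and 6.76% lower in mKPA, and 7.16% higher and 9.03% lower in v2 explants, and the counts of the lists below over P0 are to be read beside these shares. The higher one was Acsl4, a synthetase that favours arachidonic acid (1.24 ± 0.12 in mKPA, or 0.88 without P0 replicate 2, and 1.72 ± 0.14 in v2 explants), and the lower ones included Acsm2 (-2.65 ± 0.22 and -3.16 ± 0.25). Of 6 other tested ω-oxidation genes, none was higher and 2 were lower than in P0 kidneys in each culture, among them Cyp4a31 (-3.46 ± 0.20 in mKPA and -4.68 ± 0.23 in v2 explants).

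Over P0 kidneys Oxct1, which serves the use of ketone bodies, changed by -1.13 ± 0.09 in D19 mKPA, or -0.97 without P0 replicate 1, and by -1.77 ± 0.10 in D19 v2 explants (limma). Of 16 other tested PPAR target genes, 10 were higher and none lower in D19 over D3 mKPA, and 15 higher and none lower in D19 over D3 v1 explants, where 10.9% and 10.5% of all genes were higher. Over P0 kidneys 5 were higher and 4 lower in D19 mKPA, and 4 higher and 8 lower in D19 v2 explants. Angptl4, a secreted inhibitor of lipoprotein lipase, changed by 2.32 ± 0.23 in mKPA and 2.23 ± 0.26 in v2 explants, and Acot3, a peroxisomal acyl-CoA thioesterase, by -3.16 ± 0.18 and -3.49 ± 0.21. Of 19 regulators, 1 was higher and 1 lower in D19 mKPA over P0, and 2 higher and 4 lower in D19 v2 explants. Lpin1, a coactivator of Ppara with phosphatase activity, changed by 1.62 ± 0.15 and 1.75 ± 0.17, and the orphan receptor Esrrb by -2.68 ± 0.25 and -3.34 ± 0.29. None of 20 nuclear respiratory chain genes was called by limma in D19 mKPA over P0 kidneys, though 19 had an unadjusted p under 0.05, counting both directions together. In D19 v2 explants 2 were lower than in P0 kidneys, whereas 18 of the 20 were lower than in P45 kidneys in each culture. None of 16 peroxisome biogenesis genes was called over P0 in either culture, and 3 were lower than in P45 kidneys in each. At an unadjusted p under 0.05 there were 7 over P0 in mKPA and 6 in v2 explants, again with both directions together. Over P45 kidneys 16.3% of all genes were lower in mKPA and 17.2% in v2 explants.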

How the data were processed

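Bulk RNA sequencing of 34 mouse samples in 17 groups of 2 was used. The authors deposited 1 table of normalized signal per gene, TMM-normalized by its own name, and STAR 2.7.8a, Partek and the builds mm39 and mm10 are listed per the submitters' processing notes. Gene positions in the table were read as mm39, since 473 of 22685 shared genes had the same start as in the mm10 annotation. Whole read counts could not be recovered from the signal, so no count test was run. The 95% intervals come from limma's standard errors, and limits set at 3 steps cover counting error only. Genes at or above 0.962 (1 ppm of the median column total of 962126) in at least 2 samples were kept, 19264 of 23331, and log2(signal + 0.962) was fitted in limma 3.58.1 (R 4.3.3) with 17 group means, trended and robust variance moderation, 17 residual degrees of freedom and a median of 9.93 prior ones. D19 mKPA is the mean of r1 and r2. Calls needed an adjusted p under 0.05 over all genes and a log2 change of at least 1, so a fold change of a low gene is understated by the pseudocount. Where a group lay at 1 step, folds are limits against 3 steps per library. Alternatives were the pseudocount, the filter, 2 rescalings, the replicate block, fits of the compared groups only, and each library left out. The members and all lists were chosen with earlier results of these data known. Per comparison the text names called members, up to 6 with the largest change in each direction, 6 further members of fixed interest, and at most 4 called genes of each other list. Some others are named where a left-out library changed their call, but not every such change is given, so a gene left unnamed is not thereby firm. Promoters came from RefSeq (GRCm38.p6) by symbol. Scripts were tested on simulated data. The result of 1 gene of the lists is not reported here.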

Additional observations from a re-analysis of the deposited data

Results flagged for a closer look

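The change of Cyp4a10 from D3 to D19 differed between mKPA and v1 explants by -1.49 on the log2 scale, tested as the difference of both changes (limma, adjusted p = 0.000404). Its signal was 0.173, 0.215, 0.168 and 0.449 in D19 mKPA and 0.04996 and 0.0539 in D3 mKPA, against 2.71 and 2.48 in D19 and 0.1496 and 0.0492 in D3 v1 explants. Medium, v2 and v1, differed together with the kind of culture and cannot be told apart from it. D19 explants in v2 medium had 0.421 and 1.19. The difference of Cyp4a10 was no longer called with a pseudocount of 3.85 (-0.64), and 12.7% of its 100-base windows also occur in other genes, 9.8% in Cyp4a32.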

How the results depend on the processing

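Of 158 changes of single members called across the comparisons, 0 turned direction under any alternative and 45 missed a threshold under at least 1, 20 of them when a library was left out. By alternative, 23 were lost with columns rescaled to equal totals, 22 with a pseudocount of 3.85, 3 with only the compared groups fitted, 2 with median-ratio rescaling, 1 with a pseudocount of 0.241, and 0 without the filter on low values. Counts of members that moved by more than 1.5 times are given by setting. With the pseudocount of 0.241 they moved to 1 lower in P9 over P0 kidneys, 2 higher in D3 v1 explants over E12.5 kidneys, 1 higher and 2 lower in D19 mKPA over D19 v2 explants, and 2 higher in D19 v2 explants over P0 kidneys. With a pseudocount of 3.85 they moved to 0 higher in D7 v1 over FBS explants, 1 higher in D19 v1 over D17 v0 explants, 1 lower in D19 v2 over v1 explants, 1 lower in D3 mKPA over D3 v1 explants, and 0 lower for the difference of changes. With equal totals they moved to 1 lower in P9 over P0 kidneys, 10 higher and 1 lower in P45 over P9 kidneys, 1 higher in D3 v1 explants over E12.5 kidneys and 1 higher in D19 v2 over v1 explants, and the median of all genes shifted by -0.18 in P9 over P0 kidneys. With median ratios they moved to 1 higher and 2 lower in D19 v2 over v1 explants, and with only the compared groups to 0 lower in D19 v1 over D17 v0 explants. Of the counts that moved less, those of higher members ran from 5 to 9 in E15.5 over E12.5 kidneys, 6 to 10 in P9 over P0 kidneys, 12 to 15 in D19 over D3 v1 explants and 8 to 15 in D19 over D3 mKPA, and those of lower members from 23 to 32 in D19 mKPA and 23 to 29 in D19 v2 explants over P45 kidneys. The cause of these moves was not tested. Leaving out 1 library gave ranges of 0 to 1 lower in P9 over P0 and in P45 over P9 kidneys, 0 to 3 higher in D3 v1 explants over E12.5 kidneys, 1 to 2 higher in D7 v1 over FBS explants, 2 to 5 higher and 1 to 2 lower in D19 v1 over D17 v0 explants, 0 to 1 higher in D19 v2 over v1 explants, 1 to 2 lower in D3 mKPA over D3 v1 explants, 1 to 2 higher in D19 v2 explants and in D19 mKPA over P0 kidneys, and 1 to 2 lower for the difference of changes. In those fits the lone library of a group is assumed to vary like the other groups.

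Replicate numbers showed no pairing common to all groups. Over 136 pairs of groups the correlation of same-numbered deviations ran from -0.205 to 0.205 with a median of 0.006. It was over 0.1 in 11 pairs and under -0.1 in 4. With 2 libraries per group this check cannot exclude pairing between particular groups. With the replicate block in the fit, 0 of 36 member counts moved and 0 calls were lost. Depth limits Fabp1 in all libraries and Cyp4a14, Cyp4a10, Acsm1 and Cd36 in those near 1 step. With 2 libraries per group, all p-values lean on the spread shared across groups.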

Other observations

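Lipid storage and binding genes outside the 35 also differed from newborn kidneys. Plin2, a coat protein of lipid droplets, averaged 80.6 in D19 mKPA, 111 in D19 v2 explants and 36.7 in P0 kidneys, changes of 1.10 ± 0.09 and 1.57 ± 0.11 (limma). Fabp4, a binding protein of adipocytes and endothelial cells, averaged 1.49 in D19 mKPA, 2.68 in D19 v2 explants and 159 in P0 kidneys, changes of -6.02 ± 0.30 and -5.45 ± 0.35. Pparg, a regulator of lipid storage, averaged 4.29 in D19 mKPA, 18.96 in D19 v2 explants and 3.19 in P0 kidneys, and was called higher in v2 explants only (2.26 ± 0.27, against 0.30 ± 0.23 in mKPA), a difference that the direct comparison of D19 mKPA over D19 v2 explants gave as -1.95 ± 0.23. Of the pyruvate dehydrogenase kinases other than Pdk4, Pdk1 changed by -0.68 ± 0.21 in mKPA and -1.07 ± 0.25 in v2 explants, or -0.96 without P0 replicate 1 and -0.90 without v2 replicate 2, Pdk2 by -0.74 ± 0.08 and -1.07 ± 0.10, and Pdk3 by -0.27 ± 0.11 and -0.33 ± 0.13.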
